A study of Mus musculus with 26 samples.

Results

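The basal sort gate of the mammary gland was compared between mice null for Snai2 and wild-type mice at 12 months of age. Chosen by their labels, the 4 libraries were the null pools A5 and A6 and the wild-type pools A1 and A2, all labelled basal, out of 26 libraries in 13 groups of 2. All mice had the B6.129S1 strain background. Null mice were Snai2-LacZ/LacZ, so both copies of the gene carried the LacZ allele in every cell of the animal, while the controls were labelled wild type. Each library came from cells of 3 mice pooled before the sort on EpCAM and CD49f (integrin alpha 6, the product of Itga6). The other fractions of the same pools were luminal and stromal, with a luminal-basal fraction in null glands only. At 3 months no library was labelled null basal. The groups compared have 2 pools each, so the p-values below rest on a spread estimated over all groups in the model. Fractions of the same pool are among those groups, and the 2 null basal libraries agreed less than the other pairs, as given below. Genotype cannot be told apart from the pool or from any batch that went with it.

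Mammary ducts have an inner layer of luminal cells, which hold keratins 8, 18 and 19, and an outer layer of basal or myoepithelial cells, which hold keratins 5 and 14 and a smooth-muscle contractile apparatus and rest on the basement membrane. Basal cells carry much CD49f and moderate EpCAM on their surface, and Snai2 (also called Slug) is a zinc-finger repressor that binds E-boxes and is found in them. CD49f is also on endothelial, mural and Schwann cells, which rest on a basement membrane of their own. A gate on CD49f can thus hold these cells unless they are removed by other surface markers.

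As examples, the 250 bases before the RefSeq start (GRCm38.p6) are given for 3 of the genes below, on the strand of the gene from 5′ to 3′. Flt1 and Emcn are endothelial genes that rose in the null gate and Oxtr is a myoepithelial gene that fell. Capitals in Flt1 and Emcn mark AGGAAG, the core of an ETS-family site, or its reverse complement CTTCCT. Capitals in Oxtr mark an E-box of the kind Snail-family proteins bind, CAGGTG, here as its reverse complement CACCTG, and 1 other E-box, CACGTG.
Flt1 (chr5:147726012-147726261, minus strand): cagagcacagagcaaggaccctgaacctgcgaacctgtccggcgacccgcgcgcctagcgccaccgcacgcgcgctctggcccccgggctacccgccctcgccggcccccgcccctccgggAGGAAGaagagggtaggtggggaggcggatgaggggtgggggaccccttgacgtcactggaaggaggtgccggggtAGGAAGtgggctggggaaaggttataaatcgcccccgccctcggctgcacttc
Emcn (chr3:137340828-137341077, plus strand): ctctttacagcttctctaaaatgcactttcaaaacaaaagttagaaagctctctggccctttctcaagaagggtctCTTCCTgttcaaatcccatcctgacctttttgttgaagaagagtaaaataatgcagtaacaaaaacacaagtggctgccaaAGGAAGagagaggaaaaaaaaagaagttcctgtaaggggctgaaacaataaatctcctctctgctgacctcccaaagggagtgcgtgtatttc
Oxtr (chr6:112489826-112490075, minus strand): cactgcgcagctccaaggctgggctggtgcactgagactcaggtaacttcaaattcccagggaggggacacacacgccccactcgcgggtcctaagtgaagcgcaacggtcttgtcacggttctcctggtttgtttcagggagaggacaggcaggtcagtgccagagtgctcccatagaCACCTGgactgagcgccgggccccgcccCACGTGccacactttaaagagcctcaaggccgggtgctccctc
The GENCODE starts of Emcn and Oxtr lie inside these windows, so each holds some transcribed bases by that annotation. The Krt14 window, whose RefSeq start lies inside the GENCODE gene, is not shown and held none of these motifs. Searched on both strands, AGGAAG was in 10 of 18 promoters (55.6%) of the 13 blood endothelial genes with a RefSeq entry, against 28.4% of the 14564 promoters of all genes tested. Among all genes called it was near that share, in 30.9% of promoters of genes that rose and 27.7% of those that fell. Several starts of 1 gene count as separate promoters. CAGGTG was in 14.4% of 891 promoters of genes that rose, 20.6% of 975 promoters of genes that fell and 16.3% of all. The other E-box, CACGTG, was in 6.62%, 5.64% and 7.8% in the same order. Symbols with an entry numbered 646 of 884, 732 of 1042 and 11411 of 17225. These shares describe letters in a window, not binding.

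Levels are CPM, each gene's share of the library total on the usual counts-per-million scale, corrected by the TMM factor of edgeR, and values are given as the wild-type libraries A1 and A2 against the null libraries A5 and A6. Totals were 3194330 to 8475262 counts in the 4 libraries, of which mitochondrial ribosomal RNA took 15.6% to 38.4%. Null library A6 stood apart. At equal depth it held 13197 genes with a count, against 14124 to 18155 in the other 25 libraries. Its correlation with A5 over log2 CPM was 0.872, against 0.926 to 0.98 within the other groups, and 2.89% of genes differed by more than 8-fold between A5 and A6. The A5 libraries labelled luminal-basal and stromal carried each other's markers (fibroblast list 14900 and 255 CPM in all, basal list 2060 and 15600 CPM) and were left out of the model, which leaves 24 libraries. In the wild-type basal pair, A1 was high in milk genes (Csn2 6613 and 48.3 CPM) and A2 in dividing-cell genes (Mki67 17.9 and 205 CPM).

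Snai2 (ENSMUSG00000022676, chr16:14705852-14709385 on GRCm38, protein-coding) was near 0 in the null libraries. Its level was 56.2 and 50.8 CPM in wild-type basal cells and 0.187 and 0 CPM in the null gate, a single count over both null libraries. The ratio of scaled counts was 451 with an exact counting interval of 80.6 to 17830 (level 0.95, counting error only), and the gene was called at an adjusted p of 0.00226. The luminal and luminal-basal libraries of both 12-month null pools were at 0 CPM, while 1 of the 3-month null luminal-basal libraries (F82) had 5.72 CPM.

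Of 17234 genes tested, 884 were higher (5.13%) and 1042 lower (6.05%) in the null than in the wild-type gate, together 11.2%. The test was the quasi-likelihood test of edgeR with Benjamini-Hochberg adjustment, called at an adjusted p under 0.05, and all p-values below are of this kind. The median log2 fold change over all genes was -0.13 and was 0 when libraries were scaled by totals only, which turned the balance to 993 higher and 757 lower (56.7% higher against 45.9%). Among the 884 genes that rose, 633 (71.6%) were at least 2 times the wild-type mean in both null libraries, 194 in A6 only and 50 in A5 only. Among the 1042 that fell, 918 (88.1%) were at most 1/2 of the wild-type mean in both, and 122 had 0 counts in both. Both null libraries lay above both wild-type libraries in 850 of the 884 (96.2%), and below both in 1041 of the 1042 (99.9%). A lack of overlap thus adds little to a call, and its share over all genes tested is not given here. Counts of called list members are to be read against the 5.13% and 6.05% of all genes.

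Which genes were called depended on single libraries. Without A6 there were 385 higher and 430 lower genes, without A5 1821 and 2890, without A1 152 and 407, and without A2 124 and 337. Of the original calls, 298 of 884 and 345 of 1042 were called again without A6, and 67 and 234 in all 4 such fits. With the model fitted on the 4 libraries alone 355 genes were called, and with all 26 libraries under their labels 864. A lone library left in a group is assumed to vary like the other groups. Counts for the gene groups with calls are therefore also given with each library left out in turn. They are to be read against the all-gene totals of the same fit, out of 17018 to 17194 genes tested. Those totals were largest without A5, so a count there can be near the share of all genes. The part of library complexity in these calls was not tested.

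**Figure D1:**
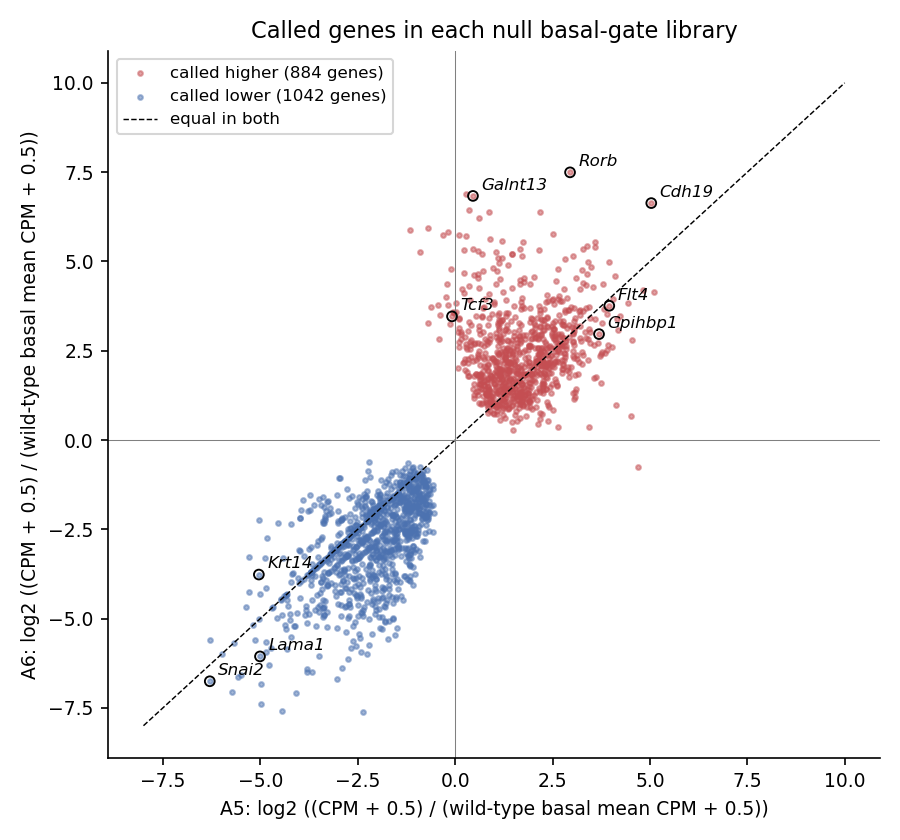
Each point is a gene called between the null and wild-type basal gates, placed by its log2 ratio to the wild-type mean in null library A5 (horizontal) and A6 (vertical), with 0.5 CPM added to both. Genes near the vertical line at 0, such as Galnt13 and Tcf3, were high in A6 alone (194 of the 884 that rose), and most of the 1042 that fell lie in the lower left, low in both libraries.

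Of the cell markers used to look into the gate, the endothelial Pecam1 and Cdh5 and the Schwann-cell Cdh19 were up and the basal keratin Krt14 was down. Pecam1 (ENSMUSG00000020717, chr11:106654217-106750628), the adhesion protein CD31 of endothelium and platelets, was at 136 and 162 CPM in wild type against 573 and 534 CPM in null libraries (log2 fold change 1.89 ± 0.51 (SE), adjusted p = 0.0226). Cdh5 (ENSMUSG00000031871, chr8:104101625-104144511), the cadherin of endothelial junctions, was at 115 and 156 against 726 and 819.8 CPM (log2 fold change 2.51 ± 0.61 (SE), adjusted p = 0.0161). Both null libraries lay above both wild-type libraries for these genes.

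Krt14 (ENSMUSG00000045545, chr11:100203162-100207548), the basal keratin 14, was at 295 and 401 CPM in wild type against 10.1 and 25.1 CPM in null libraries (log2 fold change -4.33 ± 1.09 (SE), adjusted p = 0.0233). Cdh19 (ENSMUSG00000047216, chr1:110888326-110977584), a cadherin of Schwann cells and their precursors, had no count in either wild-type library and 15.9 and 49.2 CPM in the null libraries. With the wild-type group set to 3 counts, Cdh19 was at least 104-fold higher (adjusted p = 0.000396). Again no library of one group reached into the other, as in nearly all called genes. These are bulk samples, in which fewer cells of a type and less RNA per cell cannot be told apart.

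Cdh19 was called with each of the 4 libraries left out. Pecam1 and Cdh5 were called without A5 and lost without A6, A1 or A2, at log2 fold changes of 1.84 to 2.05 for Pecam1 and 2.38 to 2.78 for Cdh5. Krt14 lost its call in all 4 fits, at -5.12 to -3.71.

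**Figure D2:**
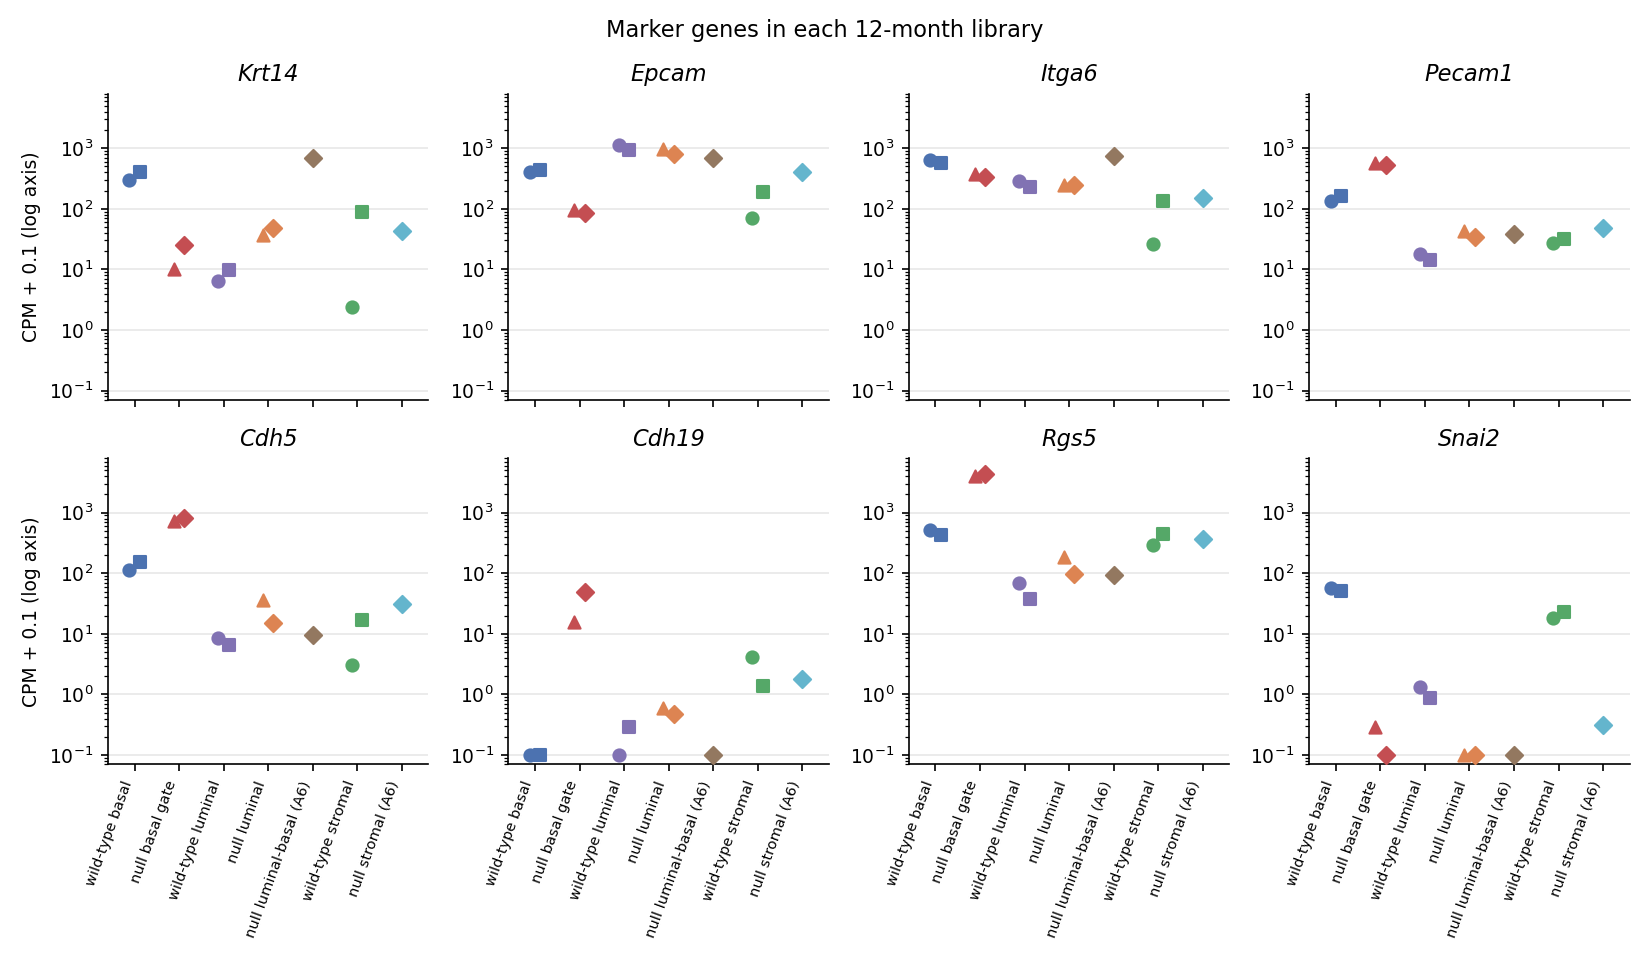
CPM + 0.1 on a log axis for 8 genes in each 12-month library, by sorted fraction; circles are pool A1, squares A2 (both wild type), triangles A5 and diamonds A6 (both null). Pecam1, Cdh5, Cdh19 and Rgs5 are highest in the 2 null basal-gate libraries, whereas Krt14 is high in wild-type basal cells and in the null luminal-basal library of A6.

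Basal and myoepithelial genes were lower in the null gate. Of the 21 listed, 13 fell and 1 rose, against 6.05% and 5.13% of all genes, with a median log2 fold change of -3.15. Summed over the list, Sparcl1 (the member that rose) included, the level was 6190 and 7040 CPM in wild type against 2780 and 2870 CPM in null libraries. Lower calls numbered 8 without A5, 2 without A6, 5 without A1 and 4 without A2, and Actg2 was the member called in each of these fits.

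Contractile genes were among those that fell. Acta2, smooth-muscle actin, was at 865 and 1295 CPM in wild type against 140.4 and 86.3 CPM in null libraries (log2 fold change -3.25 ± 0.61 (SE), adjusted p = 0.00386). Actg2, the enteric smooth-muscle actin, was at 26.95 and 104 against 0.748 and 0 CPM (log2 fold change -7.14 ± 1.20 (SE), adjusted p = 0.0016). Both wild-type libraries exceeded both null libraries for these actins, and A2 was the higher wild-type library. Myh11, the smooth-muscle myosin heavy chain, was at 1281 and 1313 against 359 and 188 CPM (log2 fold change -2.24 ± 0.52 (SE), adjusted p = 0.011). Oxtr, the oxytocin receptor through which milk ejection is triggered, was at 359 and 314 against 14.95 and 1.24 CPM (log2 fold change -5.29 ± 1.36 (SE), adjusted p = 0.0267). Mylk, myosin light-chain kinase, was at 744 and 685 against 317 and 289 CPM and was not called (adjusted p = 0.131).

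Adhesion and secreted proteins of basal cells also fell. Col17a1, the hemidesmosome collagen XVII, was at 186 and 293 CPM in wild type against 7.103 and 0.928 CPM in null libraries (log2 fold change -5.78 ± 1.18 (SE), adjusted p = 0.00909). Cxcl14, a chemokine, was at 168 and 96.9 against 11.8 and 18.9 CPM (log2 fold change -3.12 ± 0.73 (SE), adjusted p = 0.014). The cytokine Il17b had no count in either null library and 8.495 and 15.9 CPM in wild type, at least 38.9-fold lower with the null group set to 3 counts (adjusted p = 0.0119). Krt5, the partner of keratin 14, was at 311 and 460.4 against 32.5 and 32.8 CPM but was not called (adjusted p = 0.0783), and neither was the basal transcription factor Trp63 at 195 and 190.2 against 7.29 and 40.2 CPM. Sparcl1, the 1 member that rose, encodes a matrix protein that vessels and stroma also make. It was at 213 and 204 against 1306 and 1629 CPM (log2 fold change 2.81 ± 0.71 (SE), adjusted p = 0.021). Stromal libraries of 12 months had 769 to 1196 CPM. Sparcl1 was thus a large part of the 2780 and 2870 CPM to which the basal list summed in null libraries.

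Basal transcripts were present elsewhere in the same null glands. The luminal-basal library of pool A6 had 686 CPM of Krt14, 1831 CPM of Krt5, 1585 CPM of Acta2 and 672 CPM of Oxtr. Its summed basal list was 12200 CPM, above both wild-type basal libraries. That library is alone in its group here, so these values carry no test.

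Luminal keratins and junction genes were lower too. Of the 13 listed, 7 fell and none rose, with a median of -1.54, and the summed level was 1870 and 1920 CPM in wild type against 471 and 578 CPM in null libraries. Lower calls numbered 5 without A5, 4 without A6, 2 without A1 and 2 without A2, with Epcam and Cdh1 called each time. Epcam, the gene of a protein used in the sort, was at 402 and 444 against 94.8 and 85.04 CPM (log2 fold change -2.23 ± 0.43 (SE), adjusted p = 0.0032). Cdh1, the epithelial cadherin, was at 298 and 328 against 58.5 and 85.97 CPM (log2 fold change -2.12 ± 0.44 (SE), adjusted p = 0.00511). For both genes the null libraries lay well below the wild-type ones, and the null luminal libraries were at 977 and 815 CPM for Epcam.

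Krt18 (keratin 18) was at 181 and 156 CPM in wild type against 47.1 and 68.7 CPM in null libraries (log2 fold change -1.54 ± 0.40 (SE), adjusted p = 0.0179), and Krt8 (keratin 8) at 174 and 169 against 42.8 and 7.11 CPM (log2 fold change -2.75 ± 0.73 (SE), adjusted p = 0.0257). Itga6, whose product CD49f is the other sort marker, was at 645 and 577 against 376 and 338 CPM and was not called (log2 fold change -0.78 ± 0.46 (SE), adjusted p = 0.282). Among 11 hormone-sensing luminal genes, Gata3, a luminal transcription factor, was the 1 that fell, at 52.7 and 60.5 against 1.495 and 8.04 CPM (log2 fold change -3.67 ± 0.82 (SE), adjusted p = 0.0107), and lower calls numbered 1 without A5, 1 without A6, 1 without A1 and 0 without A2. The 1 of 11 hormone-sensing genes was a share near the 6.05% of all genes. Of 16 secretory luminal genes 4 fell, namely Lcn2, Trf, Wfdc18 and Mfge8. The whey acidic protein family gene Wfdc18 was at 148 and 45.1 against 7.48 and 3.09 CPM (log2 fold change -4.12 ± 0.71 (SE), adjusted p = 0.00224). Mfge8, a milk-fat globule protein, was at 241 and 228 against 78.5 and 38.04 CPM (log2 fold change -1.999 ± 0.40 (SE), adjusted p = 0.00357). Lcn2, lipocalin 2, was at 693 and 470.1 against 146 and 154 CPM (log2 fold change -1.96 ± 0.49 (SE), adjusted p = 0.0171), and Trf, transferrin, at 84.4 and 42.4 against 11.03 and 4.02 CPM (log2 fold change -3.02 ± 0.68 (SE), adjusted p = 0.0101). In all 4 genes both null libraries were below both wild-type libraries. Lower secretory calls numbered 3 without A5, 1 without A6, 2 without A1 and 4 without A2, with Wfdc18 the member called each time, and the median log2 fold change of the list was -2.48, or -0.44 without A1. The secretory share without A5 was near that of all genes in the same fit. The caseins differed mainly between the wild-type pools and were not called, with Csn1s2a at 2457 and 9 against 19.8 and 221 CPM.

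Blood endothelial genes were higher in the null gate. Of 23 listed, 11 rose (against 5.13% of all genes) and none fell, with a median of 2.06. The summed level was 1090 and 1480 CPM in wild type against 6470 and 6080 CPM in null libraries. It was 448 and 235 CPM in the null luminal libraries and 166 and 120 CPM in the wild-type luminal libraries of 12 months. In 3 stromal libraries of 12 months it was 707 to 757 CPM. Higher calls numbered 11 without A5, 4 without A6, 0 without A1 and 1 without A2, and Cldn5, Esam, Flt1 and Ptprb were called both without A5 and without A6. The log2 fold change was above 0 for all 23 members, and 19 had an unadjusted p under 0.05.

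Receptors of vascular growth factors were among them. Flt1, the Vegf receptor that also acts as a decoy, was at 123 and 145 CPM in wild type against 846 and 881 CPM in null libraries (log2 fold change 2.68 ± 0.55 (SE), adjusted p = 0.00494). Kdr, the main signalling receptor for Vegfa, was at 36.6 and 47.6 against 295 and 229.5 CPM (log2 fold change 2.64 ± 0.65 (SE), adjusted p = 0.0148). The 2 null libraries were close to each other and well above wild type for Flt1. Tek, the angiopoietin receptor Tie2, was at 23.4 and 36.4 against 138 and 113 CPM and was not called (adjusted p = 0.0881).

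Other members belong to junctions and the cell surface. Cldn5, the claudin of endothelial tight junctions, was at 5.57 and 11.5 CPM in wild type against 55.7 and 50.1 CPM in null libraries (log2 fold change 2.61 ± 0.62 (SE), adjusted p = 0.0107). Ptprb, the endothelial phosphatase VE-PTP, was at 192 and 281 against 1661 and 1181 CPM (log2 fold change 2.59 ± 0.60 (SE), adjusted p = 0.0127). Groups did not overlap for either gene. Emcn, endomucin of capillaries and veins, was at 47.2 and 64.2 against 174 and 177 CPM (log2 fold change 1.66 ± 0.45 (SE), adjusted p = 0.0218). Erg, an ETS factor of endothelium, was at 85.5 and 119.5 against 340.2 and 492 CPM and missed the threshold (adjusted p = 0.0641), as did Vwf, von Willebrand factor, at 48.3 and 84.8 against 135 and 187 CPM (adjusted p = 0.0965).

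Wild-type basal libraries also held endothelial transcripts. At 3 months, where no null basal library was labelled, they had 46.5 and 31.3 CPM of Pecam1 and 79.8 and 31.8 CPM of Cdh5.

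Lymphatic endothelial genes were higher as well. Of 7 tested members of 8, 4 rose and 1 fell, with a median of 3.83 and summed levels of 179 and 186 CPM in wild type against 1350 and 837 CPM in null libraries. Flt4, the receptor for Vegfc in lymphatics, was at 21.97 and 19.3 against 328 and 286 CPM (log2 fold change 3.90 ± 0.78 (SE), adjusted p = 0.00496). Lyve1, a hyaluronan receptor of lymphatics, was at 15.5 and 5.03 against 203 and 120.3 CPM (log2 fold change 4.01 ± 0.79 (SE), adjusted p = 0.00401). Ccl21a, a chemokine of lymphatic vessels, was at 16.1 and 2.78 against 341 and 175 CPM (log2 fold change 4.84 ± 1.22 (SE), adjusted p = 0.0218). For these 3 genes the groups did not overlap, and A5 was above A6. Mmrn1, multimerin 1, was at 17.9 and 5.96 against 226 and 105 CPM (log2 fold change 3.83 ± 0.76 (SE), adjusted p = 0.00429).

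Prox1, the lymphatic master factor, was at 27.5 and 14.3 CPM in wild type against 78.9 and 28.1 CPM in null libraries, with A6 next to the wild-type library A1, and was not called (adjusted p = 0.144). Pdpn, podoplanin of lymphatics and basal epithelium, fell from 16.1 and 17.5 to 4.299 and 2.78 CPM (log2 fold change -2.21 ± 0.52 (SE), adjusted p = 0.0101) and was at 41.2 CPM in the A6 luminal-basal library. Higher lymphatic calls numbered 4 without A5, 4 without A6, 2 without A1 and 0 without A2.

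Genes that mark arteries, capillaries or veins followed. Of 17 listed, 7 rose and none fell, with a median of 1.16, and higher calls numbered 5 without A5, 4 without A6, 1 without A1 and 1 without A2. Gpihbp1, which carries lipoprotein lipase across capillary endothelium, was at 25.2 and 27.4 CPM in wild type against 346 and 209 CPM in null libraries (log2 fold change 3.40 ± 0.65 (SE), adjusted p = 0.00317) and was the member called in all 4 leave-out fits. Cd36, the fatty-acid transporter of capillaries, was at 326 and 364 against 2861 and 2184 CPM (log2 fold change 2.87 ± 0.80 (SE), adjusted p = 0.0341). Car4, a carbonic anhydrase on capillaries, was at 2.64 and 5.03 against 101 and 29.7 CPM (log2 fold change 4.05 ± 0.96 (SE), adjusted p = 0.0107). Rgcc, a cell-cycle regulator of endothelium, was at 24.6 and 22.9 against 100.2 and 88.8 CPM (log2 fold change 1.99 ± 0.47 (SE), adjusted p = 0.0107). Each of these capillary genes was above wild type in both null libraries.

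Selp, Sele and Ackr1, of activated or venular endothelium, were not called, while Nr2f2, a factor of venous endothelium, rose from 24.9 and 19.9 to 73.1 and 79.8 CPM (log2 fold change 1.78 ± 0.56 (SE), adjusted p = 0.0439). Selp, P-selectin, was at 188 and 188 CPM in wild type against 183 and 356 CPM in null libraries, and Sele, E-selectin, at 73.5 and 87.5 against 84.7 and 126 CPM. Ackr1, a chemokine receptor of venules, was at 11.7 and 20.5 against 8.79 and 21.96 CPM. Null and wild-type ranges overlapped for Selp, Sele and Ackr1. Sema3g, of arterial endothelium, rose from 6.74 and 14.7 to 60 and 50.7 CPM (log2 fold change 2.35 ± 0.68 (SE), adjusted p = 0.0293), while the arterial Efnb2 was at 268 and 282 against 214 and 234 CPM and was not called; it is also in epithelium, at 245 CPM in the A6 luminal-basal library. Whether capillary and venous members differ from each other was not tested.

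Mural genes, of the pericytes and smooth muscle that wrap vessels, were higher in the null gate. Of 14 listed, 7 rose and none fell, with a median of 2.69, and the sum was 814 and 699 CPM in wild type against 5580 and 5790 CPM in null libraries. Rgs5, a regulator of G-protein signalling in pericytes, was at 510 and 434 against 4023 and 4325 CPM (log2 fold change 3.14 ± 0.73 (SE), adjusted p = 0.0153), while stromal libraries had 299 to 451 CPM. Notch3, the Notch receptor of mural cells, was at 47.5 and 45.7 against 302 and 301 CPM (log2 fold change 2.70 ± 0.37 (SE), adjusted p = 0.000211). Abcc9, a subunit of the pericyte potassium channel, was at 41.9 and 55.98 against 505 and 359.6 CPM (log2 fold change 3.14 ± 0.88 (SE), adjusted p = 0.0348). All 3 genes were several-fold above wild type in both null libraries. Ndufa4l2, a respiratory-chain protein of pericytes, was at 2.64 and 1.85 against 28.6 and 87.2 CPM (log2 fold change 4.70 ± 0.96 (SE), adjusted p = 0.00445), and Steap4, a metalloreductase, at 106 and 83.3 against 333 and 345 CPM (log2 fold change 1.84 ± 0.32 (SE), adjusted p = 0.00159). Pdgfrb, the receptor through which endothelium recruits pericytes, was at 25.2 and 19.6 against 154 and 131 CPM and narrowly missed the threshold (adjusted p = 0.0599). Higher mural calls numbered 5 without A5, 3 without A6, 3 without A1 and 2 without A2, with Notch3 and Steap4 called each time.

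Genes of Schwann cells rose in part. Of 19 tested members of 22, 9 rose and none fell, with a median of 1.96, and the log2 fold change was above 0 for 13. At an unadjusted p under 0.05, 10 were higher and 2 lower, and DESeq2 called 9 higher and 1 lower. The summed level was 1520 and 1120 CPM in wild type against 1100 and 1700 CPM in null libraries and did not separate the groups. Kcna1, an axonal and glial potassium channel, was at 2.64 and 0.926 against 63.6 and 41.8 CPM (log2 fold change 4.98 ± 0.92 (SE), adjusted p = 0.00218). Both null libraries were above both wild-type ones, with A5 the higher.

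Mbp, myelin basic protein, was at 19.04 and 7.68 CPM in wild type against 53.7 and 99.6 CPM in null libraries (log2 fold change 2.55 ± 0.53 (SE), adjusted p = 0.00463), and Pmp22, also of myelin and of many other cells, at 168 and 126 against 389 and 672 CPM (log2 fold change 1.85 ± 0.34 (SE), adjusted p = 0.00209). Sox10, the factor that defines the Schwann lineage and is also in mammary epithelium, was at 42.8 and 38.9 against 21.7 and 39.9 CPM and was not called. Scn7a, a sodium channel of glia that was also high in the A6 luminal-basal library (643 CPM), was at 858 and 456 against 162 and 209 CPM and was not called (adjusted p = 0.0569). Higher Schwann calls numbered 10 without A5, 5 without A6, 4 without A1 and 2 without A2, with Cdh19 and Pmp22 called each time.

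Other stromal types were looked for through their own markers. The 12 fibroblast genes summed to 946 and 654 CPM in wild type against 2610 and 2670 CPM in null libraries, while stromal libraries had 14600 to 22300 CPM. Their median was 1.76, and 1 of the 12 rose, a share near the 5.13% of all genes. That gene was Col1a1, the fibrillar collagen I chain, at 56.5 and 43.4 CPM in wild type against 235 and 235 CPM in null libraries (log2 fold change 2.24 ± 0.64 (SE), adjusted p = 0.034); it was called without A5 and in no fit without A6, A1 or A2. Dcn, decorin, was at 373 and 235 against 1053 and 1187 CPM (adjusted p = 0.145), while stromal libraries had 5871 to 8970 CPM. The null libraries were above both wild-type libraries and far below stroma for Dcn and for the list as a whole.

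Of 8 tested adipocyte genes 4 rose, namely Pparg, Fabp4, Lpl and Cfd. Fabp4, a fatty-acid binding protein of fat cells and capillary endothelium, was at 328 and 499 CPM in wild type against 3369 and 2783 CPM in null libraries (log2 fold change 2.89 ± 0.64 (SE), adjusted p = 0.0104). Pparg, a nuclear receptor of both cell types, was at 16.7 and 20.1 against 179 and 104 CPM (log2 fold change 2.94 ± 0.68 (SE), adjusted p = 0.0101). The defining fat-cell hormone gene Adipoq was at 0.293 and 0.132 against 0.187 and 2.17 CPM, and Lep at 1.47 and 1.85 against 0 and 0 CPM. Adipocyte calls numbered 5 without A5, 2 without A6, 0 without A1 and 0 without A2.

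Skeletal muscle genes summed to 1.76 and 0.794 CPM in wild type against 16.6 and 57.2 CPM in null libraries, and 1 of 13 rose, a share near the 5.13% of all genes. Higher calls numbered 5 without A5, 0 without A6, 0 without A1 and 0 without A2. The 1 gene was Myh4, a fast myosin, at 0.586 and 0 against 3.18 and 7.73 CPM, with a ratio of 26.8 and a counting interval of 6.98 to 229 (adjusted p = 0.029). Leukocyte transcripts were low in both genotypes. The pan-leukocyte gene Ptprc (CD45) was at 1.47 and 2.78 against 2.06 and 0.309 CPM. Macrophage genes summed to 53 and 41.3 against 59.3 and 57.2 CPM, and 1 of 12 rose, a share near the 5.13% of all genes. That gene was Mrc1, also in lymphatic endothelium, at 0.586 and 0.662 against 5.61 and 6.49 CPM. Higher macrophage calls numbered 1 without A5, 0 without A6, 0 without A1 and 0 without A2. T, B and NK genes summed to 4.69 and 10.5 against 8.04 and 3.71 CPM with none of 8 called by edgeR, by DESeq2 or at an unadjusted p under 0.05, and 1 was lower without A5. Of 4 platelet genes 1 fell, the integrin chain Itga2b, at 2.93 and 5.03 against 0.374 and 0 CPM (adjusted p = 0.014), with lower calls numbering 1 without A5, 0 without A6, 1 without A1 and 0 without A2, and the 1 mast cell and granulocyte gene tested was not called by either tool or at an unadjusted p under 0.05. None of the 4 erythroid or 6 keratinocyte genes tested was called by either tool, and 1 erythroid gene had an unadjusted p under 0.05.

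**Figure D3:**
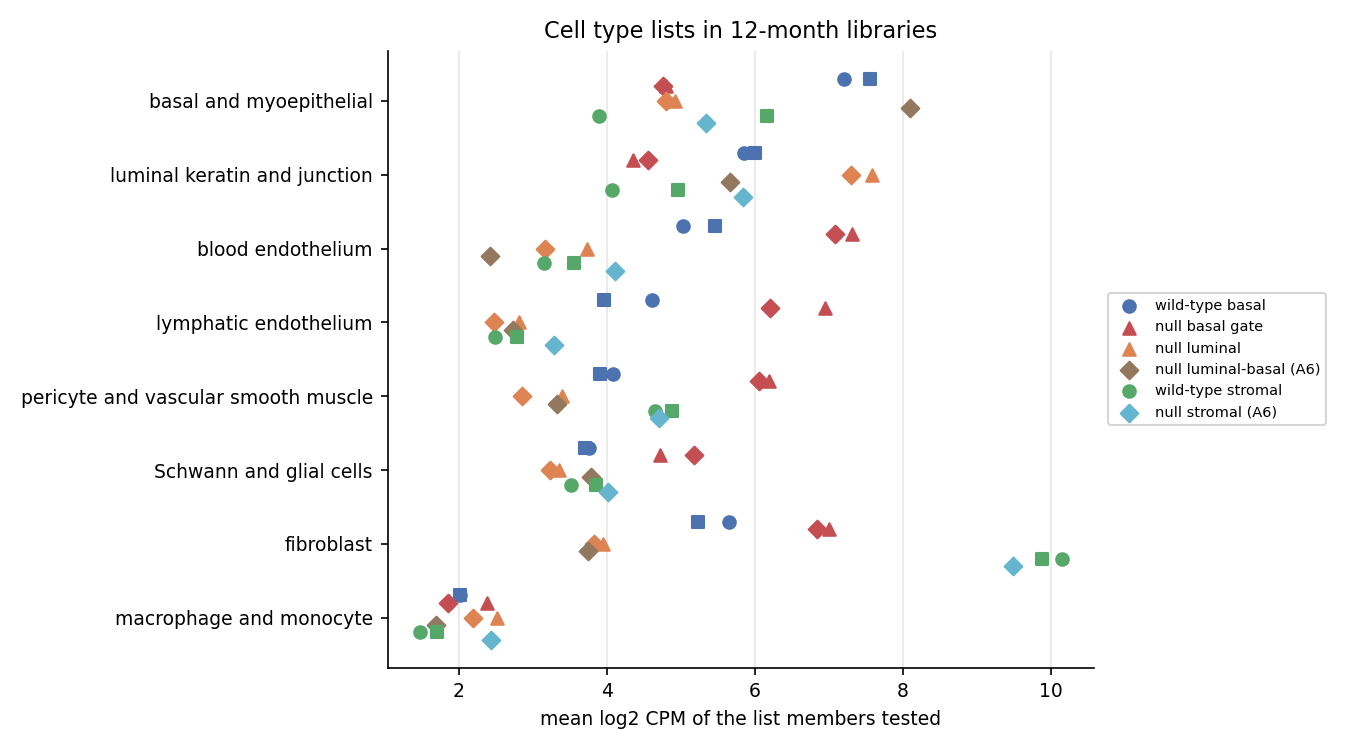
Mean log2 CPM of the tested members of 8 cell type lists, 1 point for each 12-month library shown; circles are pool A1, squares A2, triangles A5 and diamonds A6. Wild-type luminal libraries are not drawn. The null basal-gate points are the highest drawn for blood and lymphatic endothelium and for mural and Schwann genes, lie between wild-type basal and stromal points for fibroblast genes, and lie with the luminal points for basal genes.

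Basement membrane genes changed in both directions. Of 22 genes for laminins, collagen IV, nidogens, perlecan and their receptors, 5 fell and 5 rose, with a median of 0.43. The shares of all genes were 6.05% and 5.13%. Among those that fell, Lama3, an alpha chain of epithelial laminin, was at 356 and 324 CPM in wild type against 42.4 and 36.8 CPM in null libraries (log2 fold change -3.10 ± 0.65 (SE), adjusted p = 0.00733). Lama1, another laminin alpha chain of epithelial basement membranes, was at 135 and 137 against 3.74 and 1.55 CPM (log2 fold change -5.60 ± 0.75 (SE), adjusted p = 0.000289). All wild-type libraries lay far above all null libraries for both genes. Lamb3, a laminin beta chain, and Itga3, a laminin-binding integrin chain, also fell.

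In the other direction, Lama4, the laminin alpha chain of vessel walls, was at 48.04 and 50.7 CPM in wild type against 169 and 175 CPM in null libraries (log2 fold change 1.80 ± 0.34 (SE), adjusted p = 0.00235). Itga1, a collagen-binding integrin chain of vessels, was at 38.1 and 29.1 against 179.6 and 137 CPM (log2 fold change 2.24 ± 0.46 (SE), adjusted p = 0.00455). Hspg2, perlecan, was at 136 and 195 against 501 and 334 CPM (log2 fold change 1.33 ± 0.29 (SE), adjusted p = 0.0064), and the collagen IV chains Col4a1 and Col4a2 rose by 1.17 and 1.03 on the log2 scale. Lamc1, the gamma chain of most laminins, was not called at 288 and 373 against 398 and 513 CPM. Higher calls numbered 5 without A5, 3 without A6, 2 without A1 and 3 without A2, lower calls 5 without A5, 3 without A6, 3 without A1 and 3 without A2, and Lama1 and Lama4 were among those called each time.

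**Figure D4:**
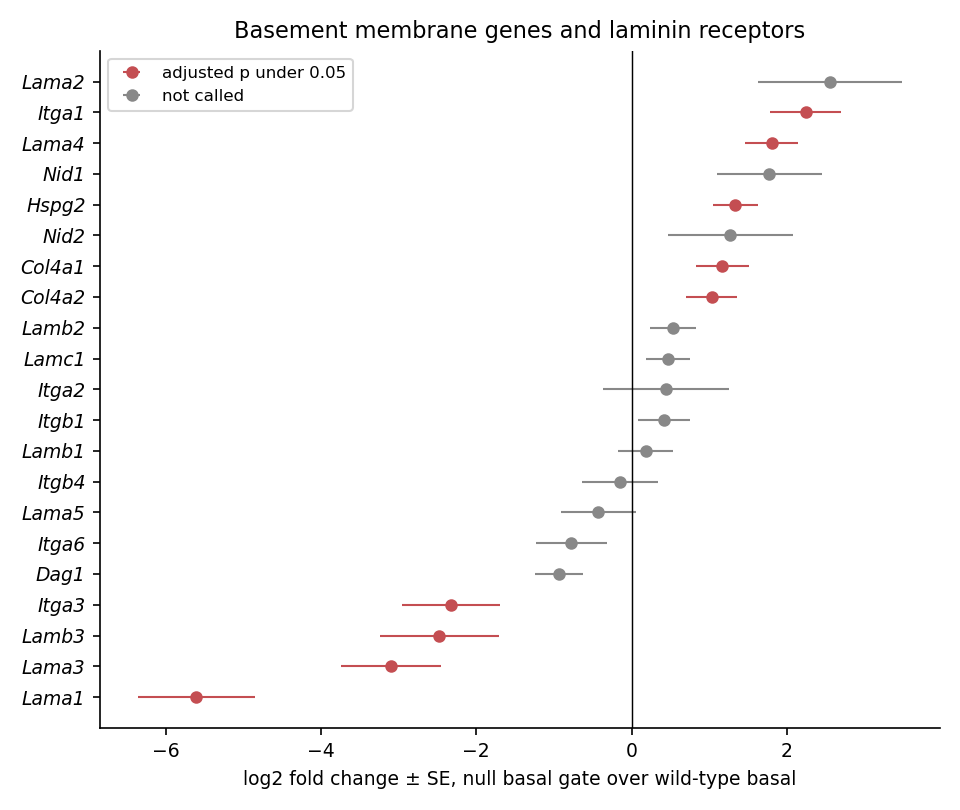
Log2 fold change ± SE of the null over the wild-type basal gate for 21 basement membrane and laminin receptor genes; red points are called at an adjusted p under 0.05. Lama1, Lama3, Lamb3 and Itga3 lie to the left of 0 and Lama4, Itga1, Hspg2, Col4a1 and Col4a2 to the right.

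In Vegf, angiopoietin and Bmp9 signalling, most of the called genes were receptors or co-receptors. Of 21 genes 7 rose and 2 fell, against 5.13% and 6.05% of all genes, with a median of 1.65. Of the risen genes 3 (Flt1, Kdr and Flt4) also stand in the endothelial lists. The co-receptor Nrp1 was at 50.7 and 71.5 CPM in wild type against 443 and 359 CPM in null libraries (log2 fold change 2.71 ± 0.64 (SE), adjusted p = 0.0134). Its relative Nrp2 was at 108 and 101 against 263 and 407 CPM (log2 fold change 1.68 ± 0.37 (SE), adjusted p = 0.00647). Id1, a target of Bmp receptors, was at 7.62 and 16.9 against 77.2 and 36.8 CPM (log2 fold change 2.20 ± 0.57 (SE), adjusted p = 0.0173). Id3, of the same family, was at 107 and 97.3 against 465 and 173 CPM (log2 fold change 1.65 ± 0.47 (SE), adjusted p = 0.0307). These 4 genes did not overlap between the groups. The ligand Vegfa was not called at 333 and 233 against 135 and 226 CPM, and the ligand Pgf fell from 8.202 and 6.35 to 0.935 and 0.619 CPM (log2 fold change -3.15 ± 0.84 (SE), adjusted p = 0.0205). Smad7, an inhibitor in the Tgf-beta and Bmp pathways, was at 211 and 168 against 72.5 and 58.1 CPM (log2 fold change -1.53 ± 0.37 (SE), adjusted p = 0.0124). Higher calls numbered 6 without A5, 4 without A6, 0 without A1 and 1 without A2. The blood endothelial sum moved with these genes, and its part in their change was not tested.

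Of 14 Notch pathway genes 4 rose (against 5.13% of all genes) and none fell, with a median of 0.82. Besides Notch3 these were the receptor Notch1 at 89.4 and 76.9 CPM in wild type against 173 and 163 CPM in null libraries (log2 fold change 1.02 ± 0.31 (SE), adjusted p = 0.0408), the endothelial ligand Dll4 at 10.8 and 12.3 against 58.7 and 115 CPM (log2 fold change 2.90 ± 0.81 (SE), adjusted p = 0.0261), and the target gene Heyl at 10.8 and 6.62 against 31.96 and 70.5 CPM (log2 fold change 2.57 ± 0.74 (SE), adjusted p = 0.0313). The ligand Jag1 was at 108 and 125 against 85.2 and 106 CPM and was not called. Higher calls numbered 4 without A5, 2 without A6, 1 without A1 and 1 without A2, and Notch3 was called each time. Endothelial and mural sums moved with them too, and their part was not tested.

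Among neuregulin and Erbb genes, of 11 tested, 2 fell (against 6.05% of all genes) and none rose. The ligand Nrg1, which basal cells supply to luminal cells, was at 21.1 and 19.5 CPM in wild type against 0 and 0.309 CPM in null libraries, a single count. Its ratio of scaled counts was 171 with an interval of 30.4 to 6799 (adjusted p = 0.00495). Erbb4, a neuregulin receptor, was at 14.7 and 5.82 against 1.495 and 0 CPM (log2 fold change -3.51 ± 0.84 (SE), adjusted p = 0.0117). Lower calls numbered 3 without A5, 0 without A6, 1 without A1 and 2 without A2.

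Other regulators of the Snail, Zeb and Twist families, which repress epithelial genes, were measured beside Snai2. The list also held Tcf3, Tcf4 and Vim, which are not of these families. Of 12 tested, 3 rose and 1, Snai2, fell, with a median of 1.75. The 3 were Zeb2, Tcf4 and Tcf3, so Zeb2 was the only family member that rose. Zeb2 was at 64.2 and 51.6 CPM in wild type against 338 and 415 CPM in null libraries (log2 fold change 2.70 ± 0.78 (SE), adjusted p = 0.0391), while stromal libraries had 461 to 599 CPM. Tcf4, an E-protein, was at 187 and 173 against 609 and 636 CPM (log2 fold change 1.79 ± 0.28 (SE), adjusted p = 0.000622) and was called in all 4 leave-out fits. Tcf3, another E-protein, was carried by A6, at 19.04 and 25.7 CPM in wild-type, 21.1 CPM in A5 and 251 CPM in A6. Without A6 its log2 fold change was -0.11. Snai1, the closest relative of Snai2, was at 4.69 and 6.62 against 28.4 and 8.66 CPM and was not called (adjusted p = 0.155). Higher calls numbered 4 without A5, 1 without A6, 1 without A1 and 1 without A2.

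Genes that respond to tissue handling were examined because the glands were frozen and dissociated. Of 19 immediate-early and stress genes 3 rose (against 5.13% of all genes) and 1 fell, with a median of 0.73. The 1 that fell was a share near the 6.05% of all genes. Zfp36, which destabilises cytokine mRNA, was at 2507 and 2064 CPM in wild type against 7129 and 7327 CPM in null libraries (log2 fold change 1.66 ± 0.44 (SE), adjusted p = 0.0193). Jun, an AP-1 subunit, was at 1399 and 1269 against 3441 and 3455 CPM (log2 fold change 1.37 ± 0.41 (SE), adjusted p = 0.0364), and Fosl1, another, at 159 and 160 against 14.8 and 31.2 CPM (log2 fold change -2.81 ± 0.85 (SE), adjusted p = 0.048). Junb was at 252 and 281 against 620.2 and 792 CPM (log2 fold change 1.41 ± 0.43 (SE), adjusted p = 0.0385). The groups did not overlap for these 4 genes. Fosb was high throughout at 6337 and 5418 against 7508 and 6302 CPM and was not called. Higher calls numbered 4 without A5, 0 without A6, 0 without A1 and 0 without A2.

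Interferon-response genes rose in part, 4 of 12 (against 5.13% of all genes) with a median of 1.70. Isg15, a ubiquitin-like modifier, was at 5.57 and 8.603 CPM in wild type against 18.5 and 45.2 CPM in null libraries (log2 fold change 2.14 ± 0.61 (SE), adjusted p = 0.0275), and Ifit1, an RNA-binding antiviral protein, at 34.6 and 21.7 against 69.4 and 159 CPM (log2 fold change 2.03 ± 0.59 (SE), adjusted p = 0.0304). The other 2 were Ifit3 at 1.76 and 2.65 against 14.6 and 24.4 CPM (log2 fold change 3.10 ± 0.92 (SE), adjusted p = 0.033) and Rsad2, viperin, at 19.04 and 14.2 against 53.5 and 112 CPM (log2 fold change 2.32 ± 0.74 (SE), adjusted p = 0.0475). A6 was the higher null library for all 4 genes. Higher calls numbered 6 without A5, 0 without A6, 0 without A1 and 0 without A2. Of 16 proliferation genes 1 fell, a share near the 6.05% of all genes, and lower calls numbered 2 without A5, 0 without A6, 0 without A1 and 0 without A2. The summed level of 265 and 660 CPM in wild type against 283 and 417 CPM in null libraries did not separate the groups, with A1 below both null libraries. The median of the list was -1.84, and 0.63 with 11 of 16 members above 0 without A2. Of 12 mitochondrial-genome genes none was called by edgeR, 5 were lower at an unadjusted p under 0.05 and 1 was lower by DESeq2, with a median of -0.72. The proliferation gene was Cdk1, at 1.17 and 6.22 CPM in wild type with no count in null libraries, at least 13.3-fold lower (adjusted p = 0.0486).

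In the 12-month null pools, the basal gate was then set against the luminal gate of the same mice. The pools are the same 3 mice in both gates. Of 17234 genes 2019 were higher (11.7%) and 1766 lower (10.2%) in the basal gate. The total of 3785 became 5962 without the basal library A5, 2691 without that of A6, 2108 without the luminal library A5 and 1894 without that of A6. All 23 blood endothelial genes were higher, with a median of 4.34, as were 13 of 14 mural genes, 12 of 19 Schwann genes (1 lower) and 9 of 12 fibroblast genes. Cdh5 was at 726 and 819.8 CPM in the basal gate and 36.3 and 15.2 CPM in luminal cells of A5 and A6 (log2 fold change 4.90 ± 0.69 (SE), adjusted p = 0.000103). Flt1 was at 846 and 881 against 32.6 and 16.4 CPM (log2 fold change 5.14 ± 0.61 (SE), adjusted p = 1.69e-05). Neither gene overlapped between the gates. With 1 of the 4 libraries left out, 18 to 22 blood endothelial genes were higher. Mural calls numbered 12 without the basal library A5, 13 without that of A6, 12 without the luminal library A5 and 7 without that of A6. In the same order Schwann calls numbered 12, 7, 7 and 5, and fibroblast calls 9, 7, 6 and 4.

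Of the 21 basal genes listed, 3 were higher in the null basal gate than in null luminal cells, near the 11.7% of all genes called higher, and none was lower. Their median was -0.36. Without the basal library A5 or A6 the higher calls numbered 1 and 2, and without the luminal library A5 or A6 they numbered 1 and 1. Krt14 was at 10.1 and 25.1 CPM in the basal gate and 37.4 and 47.9 CPM in luminal cells (log2 fold change -1.30 ± 0.995 (SE), adjusted p = 0.375), and both luminal libraries were above both basal-gate libraries. The 3 members that were higher were Mylk, Tagln and Sparcl1, which smooth muscle, pericytes or vessels also hold. Luminal keratin and junction genes were lower for 12 of 13, with Krt19 at 47.7 and 8.66 against 892 and 794 CPM (log2 fold change -4.88 ± 0.65 (SE), adjusted p = 6.49e-05). Of the hormone-sensing genes 9 of 11 were lower. With 1 library left out, 10 to 13 luminal keratin and junction genes and 7 to 8 hormone-sensing genes were lower.

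The largest differences between the gates by the naming rule included genes that 1 library carried. Higher ones included Xirp2, a muscle actin-binding protein, at 0.748 and 78.9 CPM, and Ffar2, a short-chain fatty-acid receptor, at 2.43 and 53.8 CPM, both with no count in luminal cells and nearly all counts in A6. Fam217b was at 21.9 and 5.26 CPM with none in luminal cells. Lower ones included Sptlc3, a subunit of an enzyme of sphingolipid synthesis, and the ligand Wnt7b, both with no count in the basal gate. Luminal cells held 41.3 and 27.7 CPM of Sptlc3, at least 100-fold lower in the basal gate, and 23 and 18.5 CPM of Wnt7b, at least 59.8-fold lower.

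Few genotype differences were called in the luminal gate. Between null and wild-type luminal cells 4 of 17234 genes were called (0.0232%), all higher in null and all also higher in the null basal gate. None was called without A1, A2 or A5 and 4 without A6, while a fit blocked on the pool called 19. Fgd5, an endothelial guanine exchange factor, was at 1.61 and 1.94 against 12.8 and 11.4 CPM in luminal cells, and at 34.6 and 48.8 against 214 and 456 CPM in the basal gate (log2 fold change 3 ± 0.41 (SE), adjusted p = 0.000211). Cxcl12, a chemokine of stroma and vessels, was at 10.4 and 5.61 against 45.2 and 27.1 CPM in luminal cells and 228 and 175 against 961 and 615 CPM in the basal gate (log2 fold change 1.97 ± 0.35 (SE), adjusted p = 0.00179). Null libraries exceeded wild-type libraries in both gates for both genes. Without adjustment, 850 of 17234 genes had a p under 0.05 in luminal cells. Among them were 8 of 23 blood endothelial, 4 of 7 lymphatic and 8 of 21 basal genes, all higher in null. Of 16 secretory luminal genes 6 were lower and none higher by that measure. DESeq2 called 4 basal genes higher, 2 secretory genes lower and no blood or lymphatic endothelial gene.

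The other 2 of the 4 genes called in luminal cells were the ribosomal pseudogenes Rpl34-ps1 and Rps2-ps10. Their reads cannot be placed with certainty because their parent genes are nearly identical. Rps2-ps10 was at 6.22 and 4.26 against 42.5 and 39.6 CPM in luminal cells and 4.39 and 4.5 against 29.5 and 25.4 CPM in the basal gate (log2 fold change 2.62 ± 0.46 (SE), adjusted p = 0.00145). Rpl34-ps1 was at 1.204 and 0.387 against 30.2 and 28.1 CPM in luminal cells and 0.293 and 0 against 6.73 and 18.3 CPM in the basal gate. In stromal libraries it was at 0.1799 to 0.4201 CPM, null library included.

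Whether the genotype difference of the basal gate differed from that of the luminal gate was tested directly. For 57 genes (0.331%) it was more positive and for 212 (1.23%) more negative in the basal gate, and with libraries scaled by totals only the counts were 24 and 315 (7.08% positive against 21.2%). That scaling moved the median over all genes from -0.12 to -0.42, and the median between null and wild-type luminal cells from -0.002 to 0.42. No blood endothelial gene passed by edgeR, 2 were more positive at an unadjusted p under 0.05 and 1 by DESeq2. By edgeR 9 of 21 basal genes passed, all in the negative direction with a list median of -5.5. The total was 269, and it was 2611 without the null basal library A5, 218 without that of A6, and 90 to 122 without 1 of the other 6 libraries. Acta2 differed by -5.5 ± 0.86 (SE), adjusted p = 0.00365, and its levels were 14.7 and 24.4 against 98.7 and 87.1 CPM in luminal cells. Myh11 differed by -4.83 ± 0.75 (SE), adjusted p = 0.0029, at 29.1 and 18.97 against 142 and 146 CPM in luminal cells. In the luminal gate, both null libraries were above both wild-type libraries for Acta2 and Myh11, though neither was called there. The basal list summed to 604 and 520 CPM in wild-type against 1090 and 1030 CPM in null luminal cells. The list median of -5.5 thus holds a rise in luminal cells beside the fall in the basal gate. In the basal gate alone the list median was -3.15.

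Among genes picked by smallest p in this test, Nes, nestin of vessels and glia, was at 23.7 and 21.7 against 191 and 203 CPM in the basal gate (log2 fold change 3.11 ± 0.38 (SE), adjusted p = 9.75e-05) and at 5.82 and 4.26 against 4.197 and 3.66 CPM in luminal cells. Sptbn1, a spectrin, was at 1183 and 1233 against 5902 and 5418 CPM in the basal gate (log2 fold change 2.23 ± 0.29 (SE), adjusted p = 0.000154). Dock9, an exchange factor for Cdc42, was at 135 and 131 CPM in wild type against 474 and 483 CPM in null libraries (log2 fold change 1.85 ± 0.28 (SE), adjusted p = 0.00047). These genes rose in the null basal gate and did not overlap there.

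In the negative direction, Irx5, an Iroquois homeobox gene, was at 24.3 and 30.4 against 0.935 and 0.619 CPM in the basal gate (log2 fold change -5.06 ± 0.51 (SE), adjusted p = 1.99e-05) and at 30.3 and 26.7 against 24.3 and 26.9 CPM in luminal cells. Pdgfc, a platelet-derived growth factor, was at 49.8 and 68.3 against 3.93 and 1.55 CPM in the basal gate (log2 fold change -4.35 ± 0.49 (SE), adjusted p = 6.03e-05) and 25.5 and 35.4 against 49.02 and 34.1 CPM in luminal cells. Dchs2, a large cadherin, was at 26.95 and 21.8 CPM in wild type against 0.748 and 0.619 CPM in null libraries (log2 fold change -5.09 ± 0.59 (SE), adjusted p = 6.55e-05). Both null libraries of the basal gate lay far below wild type for these 3 genes, and the luminal libraries of all 4 pools held Irx5 and Pdgfc.

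**Figure D5:**
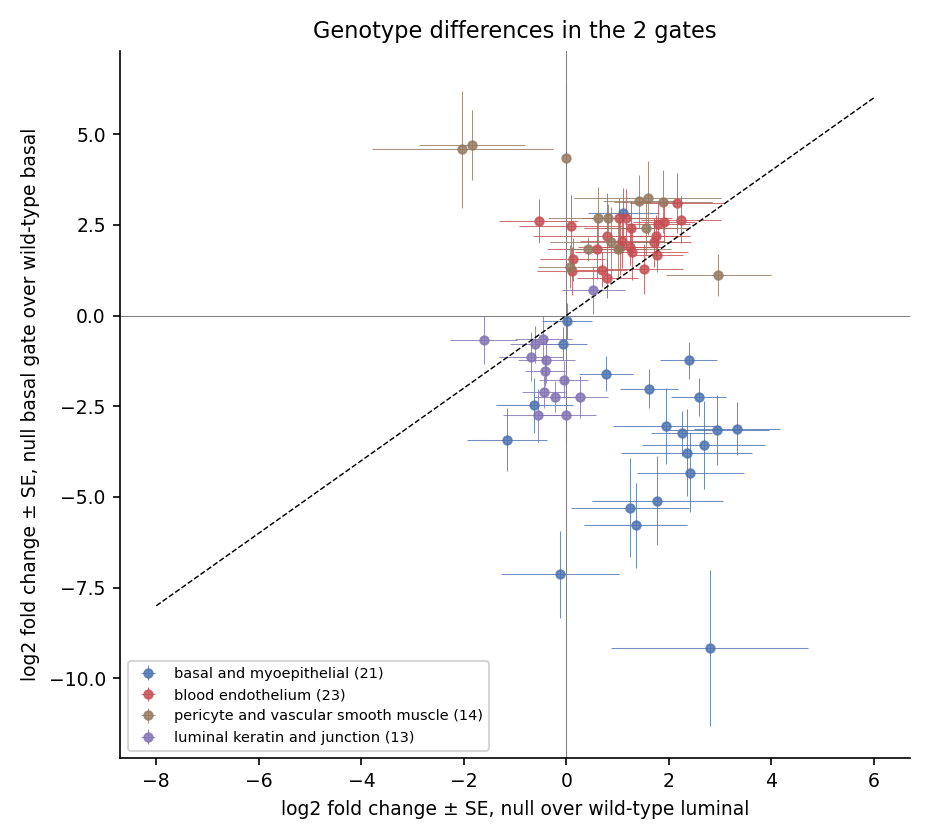
Log2 fold change ± SE of null over wild type in the luminal gate (horizontal) and the basal gate (vertical) for 4 cell type lists; the dashed line marks equal change. Most basal genes lie below the line, negative in the basal gate, while endothelial and mural genes lie above 0 in the basal gate; fitted values of genes with a group at 0 counts, such as the lowest point (Il17b), are no measure of size.

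Of the 12 largest falls by fitted value, among genes of at least 10 CPM that did not overlap, 7 had no count in either null library. Csdc2, an RNA-binding cold-shock protein, was at 41.9 and 20.8 CPM in wild type, at least 78.3-fold lower in null with the null group set to 3 counts (adjusted p = 0.000211). Capn6, a calpain-like protein, was at 6.74 and 28.6 CPM and at least 62.3-fold lower (adjusted p = 0.000951). Irx4, a homeobox gene of the same family as Irx5, was at 10.8 and 20.7 CPM and at least 50.3-fold lower (adjusted p = 0.00497). The A6 luminal-basal library held all 3, at 34.6 CPM of Csdc2, 13.01 CPM of Capn6 and 25.3 CPM of Irx4.

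Col9a2, a cartilage-type collagen chain, was at 23.7 and 23.6 CPM in wild type against 0.187 and 0 CPM in null libraries, a single count and a ratio of 203 (interval 36.1 to 8035). Ctnnd2, a delta-catenin, was at 15.2 and 62.7 against 0 and 0.309 CPM, also a single count, with a ratio of 412 (interval 73.6 to 16290). Csdc2, Capn6, Irx4, Rap1gap2, Snai2, Ctnnd2, Col9a2 and Actg2 were called in all 4 leave-out fits.

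The largest rises were mostly carried by A6. Rorb, a nuclear receptor, had no wild-type count and 3.37 and 89.7 CPM in A5 and A6, at least 131-fold higher (adjusted p = 0.0117). Galnt13, a glycosyltransferase, had no wild-type count and 0.187 and 56.6 CPM (adjusted p = 0.0466). Col10a1, the collagen of hypertrophic cartilage, was at 0.586 and 0.397 CPM in wild type against 1.31 and 82.6 CPM in null libraries (log2 fold change 6.41 ± 1.48 (SE), adjusted p = 0.0101). A5 was within a few CPM of wild type for these genes, while A6 was far above. All 3 calls were lost without A6, the library with the fewest genes detected.

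Rises shared by both null libraries were ranked by the lower null library, a rule added with the values in view. After Cdh19 they included Btnl9, a butyrophilin-like gene, at 22.9 and 32.95 CPM in wild type against 399.6 and 361 CPM in null libraries (log2 fold change 3.76 ± 0.52 (SE), adjusted p = 0.000254). Car3, carbonic anhydrase 3, was at 2.93 and 3.18 against 54.02 and 112 CPM (log2 fold change 4.75 ± 0.97 (SE), adjusted p = 0.00502). Ccdc85a was at 4.98 and 9.66 against 129 and 121 CPM (log2 fold change 4.06 ± 0.83 (SE), adjusted p = 0.00455). That both null libraries were at least 2 times the wild-type mean for these 3 genes was a condition of the rule. Btnl9 was called in all 4 leave-out fits.

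Over the 24 libraries, the genes whose log2 CPM was most like that of Pecam1 were Flt1 (Pearson r = 0.963), Adgrl4 (0.959), Sox18 (0.955), Cyyr1 (0.952) and Rasgrp3 (0.939), out of 10679 genes compared. Adgrl4, an endothelial adhesion receptor, was at 89.6 and 107 CPM in wild type against 647 and 608 CPM in null libraries (log2 fold change 2.68 ± 0.58 (SE), adjusted p = 0.00746). Sox18, an endothelial factor, was at 12.01 and 19.5 against 81.9 and 30.3 CPM and was not called (adjusted p = 0.15). Most like Cdh19 were Dusp15 (0.915), Prx (0.915), Lgi1 (0.91), Gm16751 (0.898) and Xiap (0.893). Prx, periaxin of myelinating Schwann cells, was at 1.17 and 1.72 against 10.5 and 15.2 CPM (log2 fold change 3.09 ± 0.89 (SE), adjusted p = 0.029), and Lgi1, a secreted protein of neurons and glia, at 0.293 and 1.72 against 5.23 and 30.9 CPM (log2 fold change 3.98 ± 1.09 (SE), adjusted p = 0.0231). These correlations span libraries of all fractions that share pools and differ in depth, and they describe the libraries without a test.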

How the data were processed

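RNA of sorted mammary cells, pooled from 3 mice a library, was amplified from 5 ng (NuGEN Ovation V2) and sequenced by Illumina HiSeq, per the labels' protocols. Values are raw read counts per gene as deposited by the authors. Reads were aligned with TopHat2 2.0.13 to GRCm38 and counted with HTSeq, per the submitters' processing notes. Neither strand use nor the annotation is stated there, so overlapping genes, copies and pseudogenes are uncertain. Of 45706 genes, 45143 matched GENCODE vM21 and 27 date-like symbols were restored by gene ID.

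Groups follow the labels. Genes were kept by filterByExpr (minimum count 10, minimum total 15), libraries scaled by TMM, and 24 libraries fitted with 1 coefficient a group by the robust quasi-likelihood model of edgeR 4.0.16 (R 4.3.3, limma 3.58.1), with Benjamini-Hochberg adjustment over 17234 genes. A group at 0 was set to 3 counts. Depths of 3194330 to 8475262 counts in the 4 libraries set the precision, and intervals cover counting error only.

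Named genes are the 12 largest rises and falls of at least 10 CPM without overlap, and likewise 6 and 6 between the null gates. For the difference of differences they are the 6 smallest p-values in each direction, with no condition on overlap. Added to these are up to 5 called and 3 other members of each of 27 lists (333 of 366 genes tested), and markers. Some others were chosen with values in view. A few genes of these lists and rules are not reported here. Members and lists were chosen with earlier results of these data known. Pools join fractions of the same mice but are nested in genotype. Deviations of basal and luminal libraries correlated at 0.366 in wild type and 0.017 in null pools. Alternatives were no filter, RLE or totals scaling, TMM without mitochondrial genes, other sets of libraries, the pool block, DESeq2 1.42.0 and leaving out each library. Figures used matplotlib 3.10.9.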

Additional observations from a re-analysis of the deposited data

Results flagged for a closer look

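For 11 genes the difference between null and wild type in the basal gate differed from the difference in the luminal gate by a direct test in the model (basal log2 fold change minus luminal log2 fold change, with edgeR's quasi-likelihood adjusted p). They come from the 6 smallest p-values in each direction among called genes of at least 10 CPM in a group compared. No condition on overlap was set.

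In the positive direction, Dock9 differed by 2.66 ± 0.39 (SE), adjusted p = 0.00107, and Nes by 3.47 ± 0.55 (SE), adjusted p = 0.00236. The raft protein gene Rftn1 differed by 3.42 ± 0.67 (SE), adjusted p = 0.0126, and was at 8.202 and 8.603 CPM in wild-type and 27.7 and 20.7 CPM in null basal libraries. Zbtb46, a zinc-finger gene of dendritic cells and endothelium, differed by 2.80 ± 0.55 (SE), adjusted p = 0.0126, at 16.1 and 17.7 against 85.6 and 72.7 CPM. Adgre5, the adhesion receptor CD97, differed by 2.98 ± 0.59 (SE), adjusted p = 0.0126, at 21.4 and 19.9 against 95.2 and 191 CPM. Sptbn1 differed by 1.99 ± 0.39 (SE), adjusted p = 0.0126.

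In the negative direction, Dchs2 differed by -6.98 ± 0.84 (SE), adjusted p = 0.00056, Irx5 by -4.90 ± 0.63 (SE), adjusted p = 0.00056, and Pdgfc by -4.80 ± 0.63 (SE), adjusted p = 0.00056. Ikzf4, a zinc-finger factor of the Ikaros family, differed by -3.84 ± 0.49 (SE), adjusted p = 0.00056, and was at 115 and 73.98 CPM in wild-type and 13.7 and 9.59 CPM in null basal libraries. Nhsl1 differed by -3.11 ± 0.40 (SE), adjusted p = 0.00056, at 226 and 272 against 23.7 and 18.9 CPM.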

How the results depend on the processing

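Calls between the null and wild-type basal gates numbered 1926, and 864 with all 26 libraries under their labels, 355 with only the 4 libraries compared, and 461 to 4711 with 1 library left out. Other settings gave 1750 (totals only) to 2836 (DESeq2), and the pool as a replicate block gave 2267. Of the 884 higher and 1042 lower genes, RLE kept 884 and 934, DESeq2 879 and 1026, the block 793 and 988, and the 4 libraries alone 203 and 112. Basal against luminal within null pools gave 3785 calls, 987 with only the libraries compared, 3982 with the block and 1894 to 5962 with 1 left out. The difference of differences gave 269 calls, 863 without the filter, 23 with all 26 libraries, 70 with only those compared, 839 by DESeq2, 357 with the block and 90 to 2611 with 1 left out. Null against wild-type luminal cells gave 4 calls, 163 without the filter, 32 with totals only, 0 with all 26 libraries, 19 with the block, 14 with only those compared, 63 by DESeq2 and 0 to 4 with 1 left out. The cause of these shifts was not tested.

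Of 132 genes named with a value in the main comparison, 117 were called. RLE kept 114, totals only 115, DESeq2 115, the block 112, all 26 libraries 60, only the 4 libraries compared 71 of the 114 with a value there, and leaving out A1, A2, A5 or A6 kept 49, 49, 106 and 59. Over all genes, 20 called genes changed sign without A6 and 1 without A5. Among the named genes Tcf3 was the 1 reversal in these alternatives, at -0.11 without the null replicate A6 and 3.57 without A5, against 2.59. Depth and the number of genes detected in A6 limit what low genes can show.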
